A study of Mus musculus with 16 samples.

Results

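Sectm1b, Camk2b, Trim80, Gm8994, Akr1c18, Hist1h2bj, Pls1, Eno1b and Zfp979 are 9 of the 17410 genes listed in at least 1 of 16 mouse liver tables. They were chosen because their RNA was near absent in 1 of 2 virus groups and present in the other on the same choline-free diet, so their values between those groups describe the choice and carry no test. The groups were Ad_Chrebpa_HFLMCD (livers 13 to 16), Ad_GFP_HFLMCD (livers 9 to 12), LKO_NASH (livers 21 to 24) and WT_NASH (livers 17 to 20), with 4 livers in each. Ad_Chrebpa_HFLMCD and Ad_GFP_HFLMCD came from wildtype mice aged 2 months at the start of the HFLMCD diet (45 kcal% fat, no choline, 0.1% added methionine), whose duration the labels give as 3 weeks. They received an adenovirus carrying Chrebpα or GFP 1 week before dissection. LKO_NASH and WT_NASH were Chrebpα-flox/flox mice that received AAV-TBG-Cre or AAV-TBG-GFP, where TBG is a promoter active in hepatocytes. Both were fed for 12 weeks the NASH diet of 40 kcal% fat, 20 kcal% fructose and 2% cholesterol. Strain is not among the labels used here, and an age is given for the HFLMCD mice only. Diet, mice, virus and experiment differ together between the HFLMCD and NASH livers and cannot be told apart.

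ChREBP, the product of Mlxipl, is a transcription factor of liver that responds to sugar and switches on genes of glycolysis and fat synthesis, and α is its full-length isoform. It binds with its partner Mlx to paired E-box motifs (core CANNTG, often CACGTG) known as carbohydrate response elements. The 9 genes belong to unrelated families. They are an immune ligand, a calcium-dependent kinase subunit, a tripartite motif protein, a helicase-like gene copy, a steroid dehydrogenase, a core histone, an actin bundler, an enolase gene copy and a KRAB zinc finger protein. KRAB zinc finger clusters and recent gene copies are known to vary between inbred mouse lines.

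Mlxipl is the gene named by both labels, and its RNA did not separate the groups. Its FPKM (fragments per kilobase of transcript, scaled by the authors to library size) was 44.7 to 47.8 in Ad_Chrebpa_HFLMCD and 39.0 to 48.5 in Ad_GFP_HFLMCD, and 47.5 to 100.1 in LKO_NASH and 50.1 to 80.4 in WT_NASH. The log2 fold change was 0.15 (SE 0.075, adjusted p = 0.241) for the overexpression and 0.05 (SE 0.24, adjusted p = 0.916) for the deletion by edgeR. Neither the deleted exon nor the counting of vector sequence is stated by the labels, so the group names below stand for the livers labelled with them. Each library held 21254937 to 40327264 expected counts. Over all genes, 1110 of 13658 (8.13%) were called between the HFLMCD groups by edgeR at an adjusted p below 0.05, 676 higher (4.95%) and 434 lower (3.18%) in Ad_Chrebpa_HFLMCD, while limma on log2(FPKM + 1) called 436 higher and 1010 lower. Between the NASH groups 0 of 12786 (0.0%) were called by edgeR, with 1737 (13.6%) at an unadjusted p below 0.05, and DESeq2 called 158. The hepatocyte markers Alb, Apoa1, Ttr, Cps1 and Serpina1c summed to 34732 to 61024 FPKM over all 16 livers, as in liver tissue. In whole liver, fewer cells of a type and less RNA per cell cannot be told apart.

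Promoter sequences are shown for 4 genes as examples of both directions: Sectm1b was near absent in Ad_Chrebpa_HFLMCD, and Camk2b, Trim80 and Hist1h2bj were near absent in Ad_GFP_HFLMCD. Each run holds 250 bases before and 50 after the annotated start, from RefSeq on GRCm38.p6, written 5′ to 3′ on the gene's own strand. Capitals mark every CANNTG core.
Sectm1b, chr11:121063520-121063819, minus strand: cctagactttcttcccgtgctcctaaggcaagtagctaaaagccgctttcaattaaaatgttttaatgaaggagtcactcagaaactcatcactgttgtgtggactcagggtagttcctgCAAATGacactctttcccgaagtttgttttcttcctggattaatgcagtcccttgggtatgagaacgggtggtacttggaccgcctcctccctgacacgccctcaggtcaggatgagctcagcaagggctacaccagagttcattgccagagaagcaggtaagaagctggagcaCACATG
Camk2b, chr11:6065699-6065998, minus strand: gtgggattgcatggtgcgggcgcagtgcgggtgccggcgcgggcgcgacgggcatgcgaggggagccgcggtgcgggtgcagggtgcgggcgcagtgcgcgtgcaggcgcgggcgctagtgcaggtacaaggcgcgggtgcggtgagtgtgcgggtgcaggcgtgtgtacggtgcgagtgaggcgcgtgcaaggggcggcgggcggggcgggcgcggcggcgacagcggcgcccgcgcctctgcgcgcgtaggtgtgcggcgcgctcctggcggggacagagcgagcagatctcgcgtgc
Trim80, chr11:115440295-115440594, plus strand: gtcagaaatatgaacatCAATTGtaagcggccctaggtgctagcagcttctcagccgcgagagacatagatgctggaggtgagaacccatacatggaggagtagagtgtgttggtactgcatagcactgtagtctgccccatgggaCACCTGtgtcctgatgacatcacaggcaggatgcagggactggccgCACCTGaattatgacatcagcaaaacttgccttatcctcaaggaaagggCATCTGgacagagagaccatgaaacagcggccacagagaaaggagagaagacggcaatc
Hist1h2bj, chr13:22042948-22043247, plus strand: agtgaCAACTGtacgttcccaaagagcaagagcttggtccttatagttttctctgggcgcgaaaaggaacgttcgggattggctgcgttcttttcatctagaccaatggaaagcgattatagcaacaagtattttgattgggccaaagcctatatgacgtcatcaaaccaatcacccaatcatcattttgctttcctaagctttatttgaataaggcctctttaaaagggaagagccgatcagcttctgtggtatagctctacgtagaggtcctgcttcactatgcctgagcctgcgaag
The Camk2b run, with 77.3% G and C, holds no CANNTG on either strand. Trim80 holds 4, Sectm1b 2 and Hist1h2bj 1. An entry of this table was matched for 8 of the 9 genes. Of those, 5 hold at least 1 CANNTG, against 72.3% of all 32851 promoters of that length, and 0 hold CACGTG, against 7.15%. A spaced consensus of the carbohydrate response element, searched on both strands and overlapping the shorter motifs, was found in 0 of the 8 and in 0.0274% of all promoters. A match or its lack in this window describes these letters alone.

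The set was checked against its name. A gene counted as near on-off when its FPKM averaged 0.5 or more in the higher HFLMCD group and its lowest liver there had at least 10 times the FPKM of the highest liver in the other group. Across 12474 expressed genes (averaging 0.5 FPKM or more in some group), 8 met this (0.0641%), and 4 of them were members: Camk2b, Hist1h2bj, Sectm1b and Gm8994. Trim80 missed it by level, with a mean FPKM of 0.43 in Ad_Chrebpa_HFLMCD and a lowest-to-highest ratio of 33.0. Akr1c18 had a ratio of 4.41, Zfp979 2.40 and Pls1 2.10, so these 3 are graded differences rather than on and off. Eno1b had a ratio of 1.23, set by liver 11 of Ad_GFP_HFLMCD alone, and it met the check without that liver. All 9 had groups that did not overlap, which the choice of genes fixed, against 20.3% of the 12474 genes.

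**Figure D1:**
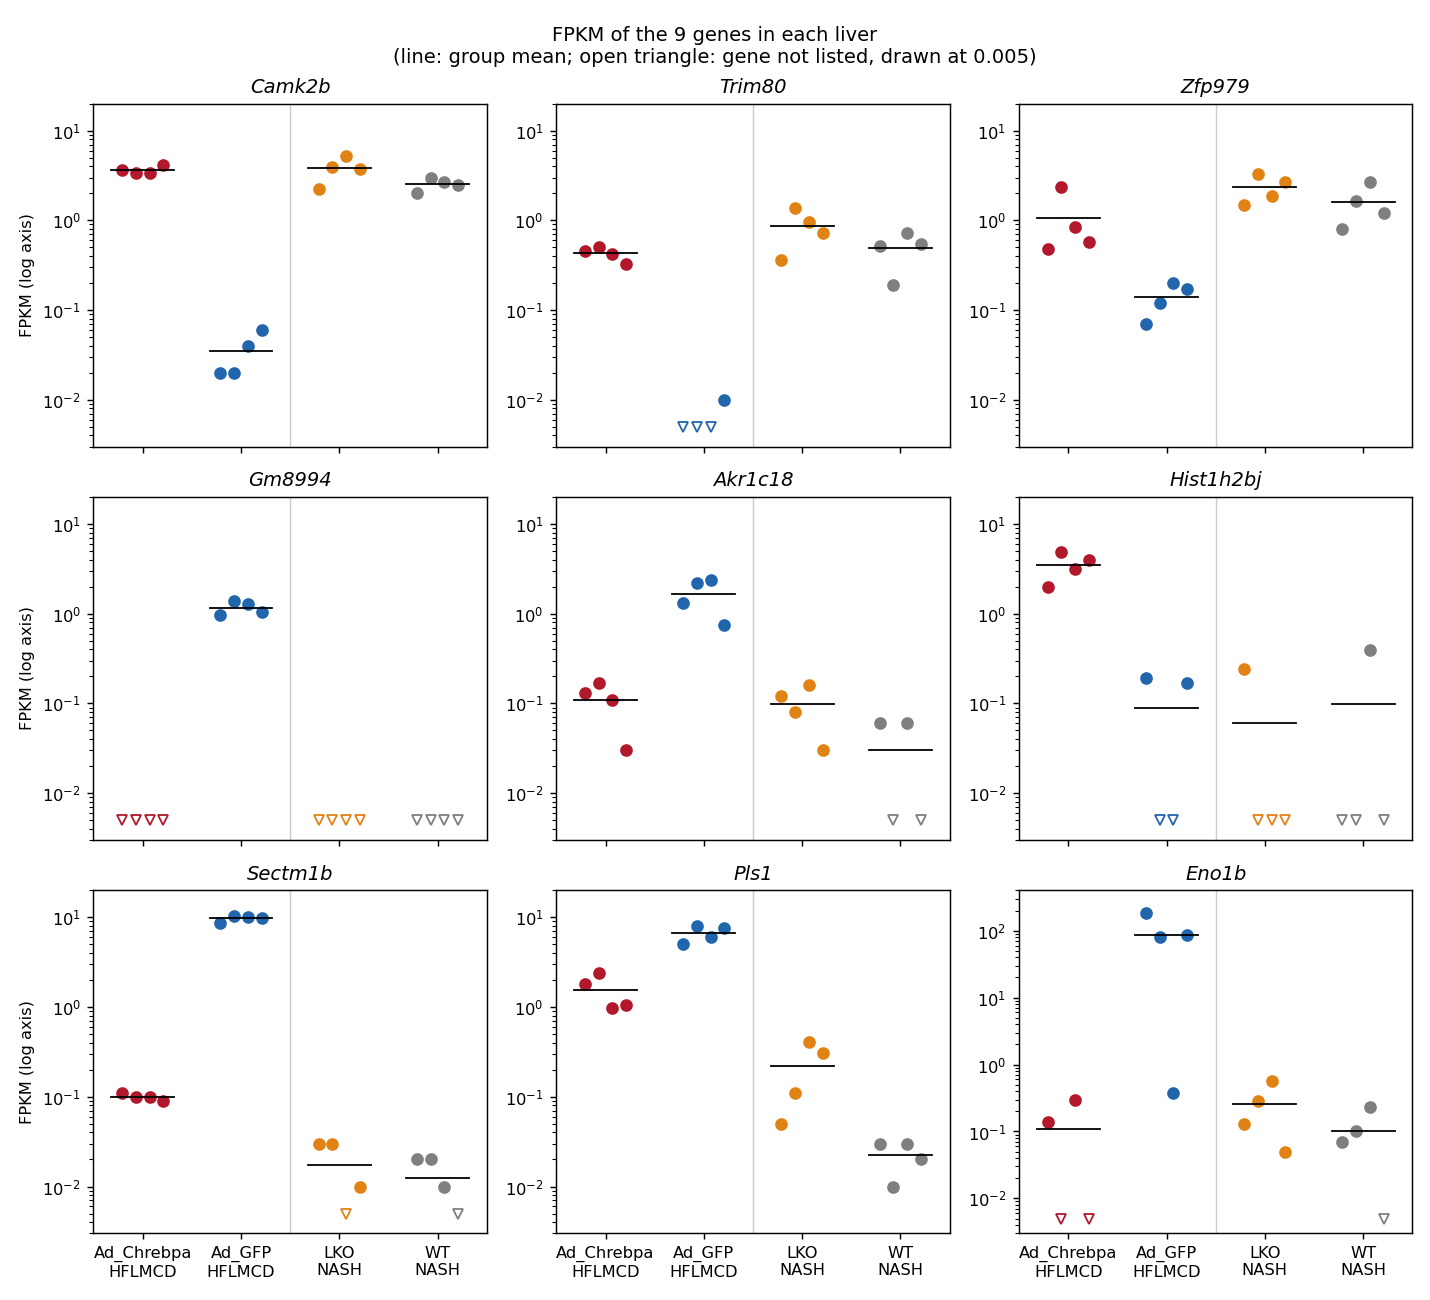
FPKM of each gene (log axis) in every liver of Ad_Chrebpa_HFLMCD, Ad_GFP_HFLMCD, LKO_NASH and WT_NASH, with 4 points per group, a line at the group mean and open triangles for livers in which the gene was not listed. Ad_GFP_HFLMCD alone lies outside the range of the NASH livers for Camk2b, Trim80, Zfp979, Gm8994 and Akr1c18, and Ad_Chrebpa_HFLMCD alone for Hist1h2bj. For Sectm1b and Pls1 both HFLMCD groups lie above that range, and Ad_GFP_HFLMCD stands above all other groups.

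The HFLMCD groups were each set beside the 8 NASH livers, and a group counted as outside their FPKM range when all 4 of its livers lay on the same side of it. By this rule Ad_GFP_HFLMCD alone lay outside for 5 genes, of which Camk2b, Trim80 and Zfp979 lay below it and Gm8994 and Akr1c18 above it. For Zfp979 the Ad_Chrebpa_HFLMCD livers 13 and 16 lay below the NASH range too, and the pooled rate of that group was 0.543 times the NASH rate. The same held for 12.6% of the 12474 genes, and for 280 of the 1110 genes called between the HFLMCD groups (25.2%). Ad_Chrebpa_HFLMCD alone lay outside for Hist1h2bj, against 3.86% of all genes and 8.29% of the called genes. Both HFLMCD groups lay above the NASH range for Sectm1b and Pls1, against 48.2% of all genes with both groups outside on the same side. Neither lay outside for Eno1b, against 35.3%. On CPM (counts scaled to the library total) with the TMM method all 9 genes kept their class, while the shares over all genes became 12.0%, 4.04%, 30.5% and 53.4%. The median gene was 0.48 higher in the HFLMCD livers on the log2 FPKM scale and 0.06 lower (-0.06) on the TMM scale, so an FPKM difference between the diets is read against that shift. No test was made of these classes, since the genes were chosen on the HFLMCD values that enter them.

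Camk2b (NCBI gene 12323, chromosome 11) encodes the β subunit of calcium/calmodulin-dependent kinase II, a kinase best known from brain. Its FPKM was 3.67, 3.38, 3.35 and 4.09 in Ad_Chrebpa_HFLMCD livers, against 0.02, 0.02, 0.04 and 0.06 in Ad_GFP_HFLMCD livers. In the NASH livers it was 2.26, 3.92, 5.23 and 3.76 in LKO_NASH, against 2.01, 2.99, 2.66 and 2.47 in WT_NASH. Ad_Chrebpa_HFLMCD lay within the NASH range, and every Ad_GFP_HFLMCD liver lay far below it. The Ad_GFP_HFLMCD livers held 20 expected counts together, against 1838 in Ad_Chrebpa_HFLMCD, which was a 98.1-fold difference in CPM. Ad_GFP_HFLMCD stood at 0.0119 times the pooled NASH rate. Between LKO_NASH and WT_NASH the log2 fold change was 0.43 (SE 0.23, 95% interval -0.10 to 0.96), with an adjusted p of 0.423 by edgeR over 12786 genes.

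The other kinase subunits did not share this pattern. Camk2a, Camk2d and Camk2g had log2 fold changes of -0.09, -0.02 and 0.09 between the HFLMCD groups, none called. Camk2d, for example, averaged 2.92 ± 0.47 FPKM in Ad_Chrebpa_HFLMCD and 3.11 ± 0.54 FPKM in Ad_GFP_HFLMCD (SD, n = 4 each). Of the 12 tested genes on a list of calcium/calmodulin kinases and their partners, 1 was higher, the kinase inhibitor Camk2n1 with 0.31 (SE 0.069), and 1 was lower, the calmodulin gene Calm3 with -0.23 (SE 0.053), against 4.95% and 3.18% of all tested genes. Their adjusted p values by edgeR were 0.0283 and 0.0287, and both rested on single livers. The Camk2n1 call ended without liver 10, 11, 12, 13 or 16, with an adjusted p of up to 0.0744, and the Calm3 call without liver 9, 10, 12, 13, 15 or 16, with up to 0.0880. The best single alignment of the longest Camk2b transcript with each of these relatives covered at most 230 bases, and further alignments were not kept. The expected counts of Camk2b were whole numbers in 16 of 16 livers as given. The length assigned to Camk2b, a mixture of 3 transcripts, was 3986 bases at its lowest, in Ad_GFP_HFLMCD, and 4013 at its highest. Neuron markers summed to 4.83 to 7.26 FPKM in Ad_Chrebpa_HFLMCD and 4.02 to 4.44 FPKM in Ad_GFP_HFLMCD, with 1 of 2 tested genes called higher. That gene alone made up most of the sum, at 4.51 to 6.53 FPKM and 3.60 to 3.95 FPKM. The other tested marker had -0.05 and was not called. The part of these markers in the Camk2b difference was not tested.

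Trim80 (NCBI gene 432613, chromosome 11) encodes a tripartite motif protein, a family that includes many RING-type ubiquitin ligases. Its FPKM was 0.46, 0.50, 0.42 and 0.33 in Ad_Chrebpa_HFLMCD livers, against 1 listed liver at 0.01 among the Ad_GFP_HFLMCD livers. In LKO_NASH it was 0.36, 1.38, 0.96 and 0.72, against 0.52, 0.19, 0.72 and 0.54 in WT_NASH. It was therefore low but present in every liver outside Ad_GFP_HFLMCD. The Ad_GFP_HFLMCD libraries held 1 count in all, against 104 in Ad_Chrebpa_HFLMCD. That ratio is 111.0-fold in CPM, with a 95% exact counting interval of 19.5 to 4424, which covers counting error only. Between LKO_NASH and WT_NASH the log2 fold change was 0.61 (SE 0.44, 95% interval -0.38 to 1.60), with an adjusted p of 0.509 by edgeR. Of 2 relatives that are not among its nearest genes, Trim47 fell by 0.46 (SE 0.096, adjusted p = 0.0202 by edgeR), and Trim65 had a log2 fold change of -0.01 and was not called. Among 21 tested tripartite motif genes 1 was higher, Trim25 with 0.33 (SE 0.069, adjusted p = 0.0203 by edgeR), and 1 was lower, against 4.95% and 3.18% of all tested genes. The Trim47 call ended without liver 12, 13 or 16, with an adjusted p of up to 0.0697, and the Trim25 call without liver 11, 12, 13 or 15, with up to 0.0615.

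Zfp979 (NCBI gene 112422, chromosome 4) encodes a KRAB zinc finger protein, also listed as Ssm1b, a name given to a modifier of transgene methylation that differs between mouse strains. Its FPKM was 0.48, 2.38, 0.84 and 0.58 in Ad_Chrebpa_HFLMCD livers, against 0.07, 0.12, 0.20 and 0.17 in Ad_GFP_HFLMCD livers. In LKO_NASH it was 1.48, 3.32, 1.86 and 2.68, against 0.80, 1.66, 2.70 and 1.21 in WT_NASH. Liver 14 was the highest of the Ad_Chrebpa_HFLMCD livers, and the other 3 of that group fell between the Ad_GFP_HFLMCD values and most NASH values. The pooled rate was 7.93-fold higher in Ad_Chrebpa_HFLMCD than in Ad_GFP_HFLMCD. Between LKO_NASH and WT_NASH the log2 fold change was 0.39 (SE 0.36, 95% interval -0.43 to 1.20), with an adjusted p of 0.596 by edgeR. Zfp979 shares 83.6% to 86.0% of bases over at least 1739 bases with Rex2, Zfp600, Zfp980 and Zfp981, and its expected counts carried decimals in 16 of 16 livers. Its counts may thus be divided with relatives, and its level is uncertain to that extent.

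Gm8994 (NCBI gene 668137, named Eif4a3l1 by RefSeq, chromosome 6) is a copy of Eif4a3, the RNA helicase of the exon junction complex. It was listed in the 4 Ad_GFP_HFLMCD livers and in no other of the 16. Ad_Chrebpa_HFLMCD livers did not list it, against FPKM of 0.98, 1.39, 1.28 and 1.04 in Ad_GFP_HFLMCD livers, which rest on 49.4 to 70.3 expected counts each. None of the 8 NASH livers listed it, so no fold is given. The copy matches Eif4a3 at 95.7% over 1438 bases, and its expected counts carried decimals in 4 of 4 listed livers, so reads were divided between the copies. Gm5580 (98.5% over 1361 bases) and Gm5576 (96.8% over 1236 bases) match Gm8994 more closely and have no values in the deposited data. Whether reads given to Gm8994 came from them was not tested. Gm8994 took 3.35% to 5.21% of the counts of both genes in the Ad_GFP_HFLMCD livers. Eif4a3 itself averaged 26.2 ± 1.01 FPKM in Ad_Chrebpa_HFLMCD and 29.0 ± 1.56 FPKM in Ad_GFP_HFLMCD (SD, n = 4 each), and was not called (adjusted p = 0.531 by edgeR).

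Akr1c18 (NCBI gene 105349, chromosome 13) encodes the 20α-hydroxysteroid dehydrogenase that inactivates progesterone. Its FPKM was 0.13, 0.17, 0.11 and 0.03 in Ad_Chrebpa_HFLMCD livers, against 1.32, 2.21, 2.40 and 0.75 in Ad_GFP_HFLMCD livers. In LKO_NASH it was 0.12, 0.08, 0.16 and 0.03, and in WT_NASH 2 livers listed it, each at 0.06. The values of Ad_Chrebpa_HFLMCD and of the NASH livers lay side by side, and Ad_GFP_HFLMCD was higher and spread from 0.75 to 2.40. The pooled Ad_Chrebpa_HFLMCD rate was 0.0698 times that of Ad_GFP_HFLMCD. Of 9 tested aldo-keto reductases 1 was called, Akr1c12 with 0.30 (SE 0.060, adjusted p = 0.0174 by edgeR), against 8.13% of all tested genes. Akr1c6, an abundant hepatic member, averaged 779 ± 39.4 FPKM in Ad_Chrebpa_HFLMCD and 763 ± 30.3 FPKM in Ad_GFP_HFLMCD (SD, n = 4 each). Akr1c13, Akr1c14, Akr1c19 and Akr1c20 had log2 fold changes of 0.18, -0.19, 0.31 and -0.13, none called. Markers of steroid-forming tissue summed to 2.50 to 3.22 FPKM in Ad_Chrebpa_HFLMCD and 2.34 to 5.46 FPKM in Ad_GFP_HFLMCD, with 0 of 2 tested genes called.

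Hist1h2bj (NCBI gene 319183, named H2bc11 by RefSeq, chromosome 13) encodes a core histone H2B of the replication-dependent cluster, whose transcripts mostly lack a poly(A) tail. It was the only one of the 9 genes for which Ad_Chrebpa_HFLMCD alone left the NASH range. Its FPKM was 2.00, 4.87, 3.16 and 3.96 in Ad_Chrebpa_HFLMCD livers, against 0.19 and 0.17 in the 2 Ad_GFP_HFLMCD livers that listed it. In LKO_NASH 1 liver listed it, at 0.24, and in WT_NASH 1 liver, at 0.39. The 25.3 to 66.2 expected counts per Ad_Chrebpa_HFLMCD liver carried decimals throughout, and 4 other H2B transcripts match it at 94.6% to 98.0%, so the division of reads among them is uncertain. The pooled rate was 38.6-fold higher in Ad_Chrebpa_HFLMCD than in Ad_GFP_HFLMCD. Of 12 tested replication-dependent histone genes 0 were called higher and 2 lower, against 4.95% and 3.18% of all tested genes. The 2 were Hist1h2bc with -0.29 (SE 0.072, adjusted p = 0.0369) and Hist1h1c with -0.48 (SE 0.13, adjusted p = 0.0465), both by edgeR. Without the filter on low counts 50 were tested and 2 were called higher, Hist1h2ba and Hist1h2ai, with the same 2 lower. The Hist1h2bc call ended without liver 11, 12, 13, 15 or 16, with an adjusted p of up to 0.0981, and the Hist1h1c call without liver 9, 10, 11, 12, 15 or 16, with up to 0.110. Hist1h2bq, the closest of the 4 in sequence, averaged 0.13 ± 0.033 FPKM in Ad_Chrebpa_HFLMCD and 0.18 ± 0.064 FPKM in Ad_GFP_HFLMCD (SD, n = 4 each). The labels name oligo-dT selection or depletion of ribosomal RNA without saying which was used, a choice that bears on the level of any transcript lacking a poly(A) tail.

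Sectm1b (NCBI gene 58210, chromosome 11) encodes a secreted and transmembrane protein whose human counterpart binds CD7 on T and NK cells. Its FPKM was 0.11, 0.10, 0.10 and 0.09 in Ad_Chrebpa_HFLMCD livers, against 8.58, 10.39, 10.12 and 9.86 in Ad_GFP_HFLMCD livers. It was at most 0.03 in LKO_NASH and at most 0.02 in WT_NASH. Spread within the HFLMCD groups was small, with coefficients of variation of 8.16% and 8.23%. The pooled Ad_Chrebpa_HFLMCD rate was 0.0102 times that of Ad_GFP_HFLMCD, and yet 6.82-fold above the pooled NASH rate on 29 and 8 expected counts. Ad_GFP_HFLMCD stood 669.9-fold above that rate. Its expected counts were whole numbers in all 14 livers that listed it.

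The adjacent paralogue Sectm1a had the same order of groups with a smaller step. Sectm1a averaged 2.63 ± 0.53 FPKM in Ad_Chrebpa_HFLMCD and 9.81 ± 1.66 FPKM in Ad_GFP_HFLMCD, and 0.40 ± 0.23 FPKM in LKO_NASH and 0.30 ± 0.13 FPKM in WT_NASH (SD, n = 4 each). Its log2 fold change between the HFLMCD groups was -1.83 (SE 0.16, adjusted p = 0.000513 by edgeR), and between the NASH groups it was 0.26 (SE 0.46, adjusted p = 0.787 by edgeR). The paralogues match at 69.6% over 342 bases. Cd7, the next tested gene on the other side, had -0.14 and was not called.

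Pls1 (NCBI gene 102502, chromosome 9) encodes plastin 1, an actin bundler of the microvilli of intestine and kidney. Its FPKM was 1.80, 2.40, 0.97 and 1.06 in Ad_Chrebpa_HFLMCD livers, against 5.05, 8.01, 6.10 and 7.60 in Ad_GFP_HFLMCD livers. In LKO_NASH it was 0.05, 0.11, 0.41 and 0.31, against 0.03, 0.01, 0.03 and 0.02 in WT_NASH. The groups thus ran in steps without overlap, with Ad_GFP_HFLMCD highest and WT_NASH lowest. Pls1 was the only one of the 9 genes whose NASH groups did not overlap, against 7.83% of the 12474 genes, or 7.15% with LKO_NASH higher. It did not pass the filter of the NASH fit; without a filter its log2 fold change was 2.97 (SE 0.69, 95% interval 1.42 to 4.51), with an unadjusted p of 0.00161 and an adjusted p of 0.354 by edgeR. That step rests on 88 and 11 expected counts. The leukocyte plastin Lcp1 and the widely expressed Pls3 had 0.10 and 0.28 between the HFLMCD groups and were not called by edgeR, and 0 of 7 tested plastin and microvillus genes were called, against 2 higher, Pls3 among them, and 1 lower by DESeq2. Pls3 was also called without liver 14, with an adjusted p of 0.0154 by edgeR. The lower one was Vil1, the villin gene, named after its values were seen, at 0.07 to 0.12 FPKM in Ad_Chrebpa_HFLMCD and 0.15 to 0.36 FPKM in Ad_GFP_HFLMCD. Its log2 fold change was -1.21 (SE 0.33, adjusted p = 0.0504 by edgeR), and without liver 9 its adjusted p was 0.0450.

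Cholangiocyte markers moved with Pls1 in the HFLMCD livers. Their summed level was 93.4 to 140.1 FPKM in Ad_Chrebpa_HFLMCD, 117.6 to 284.0 FPKM in Ad_GFP_HFLMCD, 21.3 to 55.1 FPKM in LKO_NASH and 16.4 to 37.1 FPKM in WT_NASH. Most of this sum was Spp1, named after its values were seen, and the HFLMCD ranges overlapped. Spp1 had 88.6 to 134.9 FPKM in Ad_Chrebpa_HFLMCD and 110.0 to 271.6 FPKM in Ad_GFP_HFLMCD. It was not called (-0.71, SE 0.23, adjusted p = 0.0803 by edgeR), but was called without liver 9 or 14. Of the 6 tested markers 4 fell in Ad_Chrebpa_HFLMCD, against 3.18% of all tested genes called lower. The duct keratin Krt19 fell by 1.22 (SE 0.20, adjusted p = 0.00799), the chloride channel Cftr by 2.51 (SE 0.46, adjusted p = 0.0131) and the adhesion molecule Epcam by 0.90 (SE 0.19, adjusted p = 0.0225) on the log2 scale by edgeR. Cftr was near the floor, at 0.02 to 0.07 FPKM in Ad_Chrebpa_HFLMCD and 0.12 to 0.43 FPKM in Ad_GFP_HFLMCD. Its log2 fold change ranged from -2.53 to -0.27 over the fit settings tried. Leaving out liver 13, 15 or 16 left 2 of the 6 called, Krt19 and Cftr in each case, and a fit of all 16 livers 1. Their part in the Pls1 difference was not tested.

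Eno1b (NCBI gene 433182, chromosome 18) is a retrotransposed copy of Eno1, which encodes the glycolytic enzyme enolase. It is the gene whose values hang on single livers. Its FPKM was 0.14 and 0.30 in the 2 Ad_Chrebpa_HFLMCD livers that listed it, against 183.79, 80.06, 0.37 and 85.98 in Ad_GFP_HFLMCD livers 9 to 12. In LKO_NASH it was 0.13, 0.29, 0.56 and 0.05, and in WT_NASH at most 0.23. Ad_GFP_HFLMCD liver 11 thus lay with the NASH livers, and the other 3 livers of its group lay far above them. Eno1b and Eno1 match at 99.5% over 1652 bases, and every listed Eno1b count carried decimals, so the division of reads between them is uncertain. Another copy, Gm4735, matches Eno1b at 99.8% over 1302 bases and has no values in the deposited data. Whether reads given to Eno1b came from such a copy was not tested.

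Summed over both genes the Ad_GFP_HFLMCD livers were more even than for Eno1b alone, and each lay above every Ad_Chrebpa_HFLMCD liver. For Eno1 alone the HFLMCD groups overlapped. The groups did not overlap for 20.3% of the 12474 expressed genes, and the sum holds the Eno1b values on which that gene was chosen. Eno1 and Eno1b together had 306.0, 339.7, 291.8 and 311.1 FPKM in Ad_Chrebpa_HFLMCD, against 470.1, 408.6, 408.5 and 434.1 FPKM in Ad_GFP_HFLMCD. Liver 11, in which 0.0888% of both genes' counts were given to Eno1b, had the highest Eno1 value of its group, 408.1 FPKM. In livers 9, 10 and 12 the share given to Eno1b was 38.6%, 19.2% and 19.5%. Eno1 alone averaged 312 ± 20.2 FPKM in Ad_Chrebpa_HFLMCD and 343 ± 50.6 FPKM in Ad_GFP_HFLMCD (SD, n = 4 each) and was not called (-0.06, SE 0.10, adjusted p = 0.734 by edgeR). Without liver 11 the Eno1 value was 0.043. Eno2 and Eno3 had 0.65 and 0.02, neither called. Of 8 tested enolase and neighbouring glycolytic genes 2 fell, against 3.18% of all tested genes called lower. They were Pklr by 0.54 (SE 0.083, adjusted p = 0.00671) and Gapdh by 0.31 (SE 0.066, adjusted p = 0.0217) by edgeR. The Gapdh call ended without liver 9, 11, 12, 15 or 16, with an adjusted p of up to 0.0661.

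**Figure D2:**
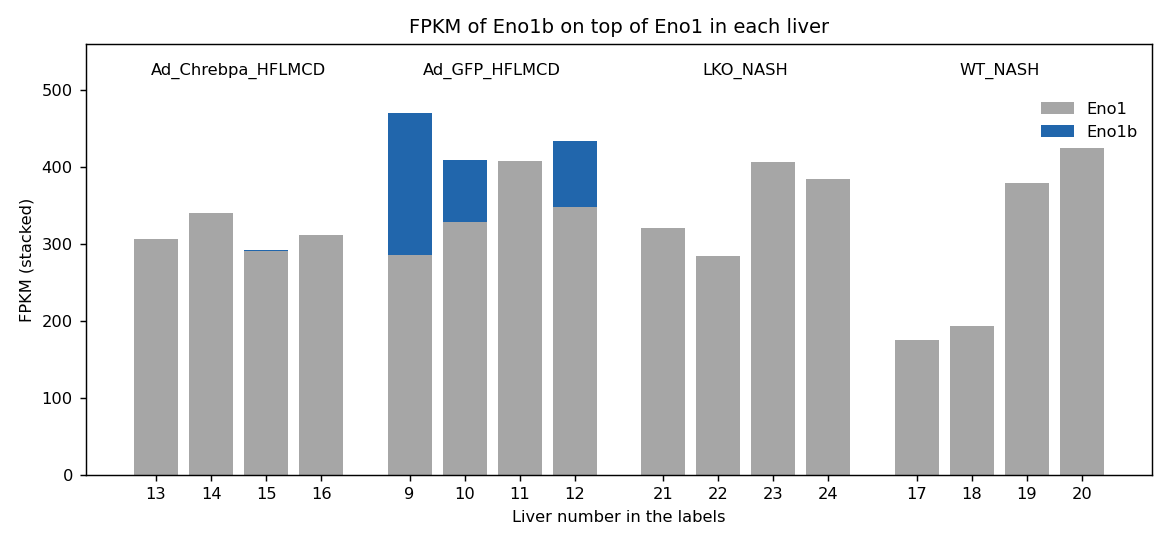
FPKM of Eno1b stacked on that of Eno1 in each liver, livers on the x axis in their groups. Eno1b is visible in Ad_GFP_HFLMCD livers 9, 10 and 12 and not in liver 11, whose total of 408.5 lies beside the 408.6 of liver 10.

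The deletion of Chrebpα in the NASH livers is the comparison that the choice of genes did not use. Camk2b, Trim80 and Zfp979 passed its filter on low counts, and as given above none was called, against 0.0% of the 12786 genes. The other 6 were too low: without a filter Sectm1b had 0.58 (SE 0.94), Akr1c18 1.22 (SE 0.90), Hist1h2bj -0.83 (SE 1.44) and Eno1b 1.05 (SE 0.88) on the log2 scale, none called by edgeR, and Gm8994 was listed in no NASH liver. These errors are large, and the values do not show that the deletion left the genes alone.

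Genes next to the 9 were compared in the same fits. The 5 nearest tested genes on each side, in the gene order of GRCm38.p6, gave 90 neighbours. Between the HFLMCD groups 5 were higher and 5 lower in Ad_Chrebpa_HFLMCD, or 11.1%, against 8.13% of all tested genes. Their median absolute log2 fold change was 0.17, against 0.14 over all tested genes. Between the NASH groups 0 of 83 tested neighbours were called. A share of 11.1% lies near the background and is no finding about the set. Leaving out liver 12, 13, 15 or 16 left 6 called. Gm8994, Hist1h2bj and Pls1 had 0 called neighbours.

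Sectm1b and Zfp979 had the neighbours that differed most. Beside Sectm1b, the fatty acid synthase gene Fasn fell by 1.03 (SE 0.14, adjusted p = 0.00371) with Sectm1a, and Narf rose by 0.50 (SE 0.12, adjusted p = 0.0303) by edgeR. Fasn is also a ChREBP target. Near Zfp979, Fv1, a retrovirus restriction gene known for alleles that differ between mouse strains, rose by 1.31 (SE 0.35, adjusted p = 0.0495 by edgeR). This call ended when liver 10, 11, 12, 13, 15 or 16 was left out, with an adjusted p of up to 0.133. Fv1 averaged 1.10 ± 0.23 FPKM in Ad_Chrebpa_HFLMCD and 0.46 ± 0.22 FPKM in Ad_GFP_HFLMCD, and 1.15 ± 0.064 FPKM in LKO_NASH and 1.03 ± 0.18 FPKM in WT_NASH (SD, n = 4 each), and every Ad_GFP_HFLMCD liver lay below the NASH range. Zfp982, named after its values were seen, had 1.94 (SE 0.59, adjusted p = 0.0721 by edgeR) and also lay below the NASH range in every Ad_GFP_HFLMCD liver; without liver 9 its adjusted p was 0.0216. The median log2 fold change of the 10 neighbours of Zfp979 was 0.46, against -0.01 over all tested genes. They ranged from -0.79 to 1.94, and 1 was called. Zfp981 and Rex2 are among them and match Zfp979 in sequence, so the 10 values may not be independent. Camk2b lies beside Nudcd3, which fell by 0.49 (SE 0.060, adjusted p = 0.00235) by edgeR. Other called neighbours were Kctd2 at Trim80, Net1 and Akr1c12 at Akr1c18, and Cdo1 at Eno1b, all within 0.55 of 0 on the log2 scale. The call of Narf ended without liver 9, 11, 12, 13, 15 or 16, with an adjusted p of up to 0.0927, and that of Net1 without liver 11, 12, 13, 15 or 16, with up to 0.0880.

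**Figure D3:**
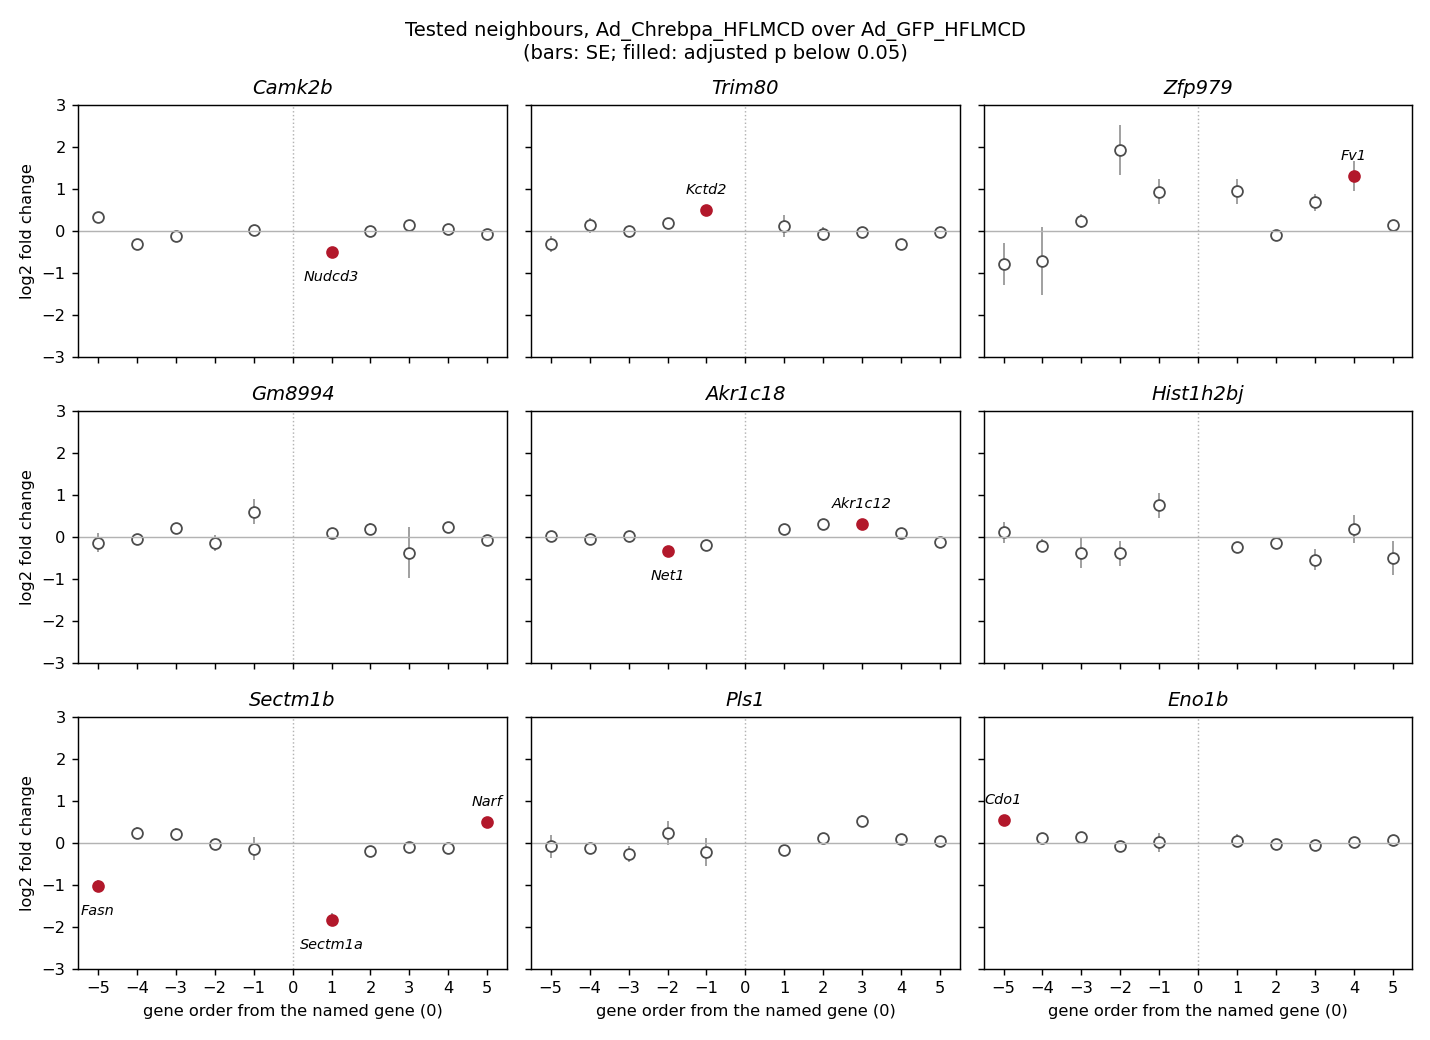
Log2 fold change of Ad_Chrebpa_HFLMCD over Ad_GFP_HFLMCD (y axis, bars for the SE) for the 5 nearest tested genes on each side of each gene (x axis, order from the gene at 0). The 9 filled points passed an adjusted p of 0.05. Most points lie near 0, with Zfp982 at 1.94, Sectm1a at -1.83 and Fv1 at 1.31 among the exceptions.

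Likeness of profile was measured as the mean absolute difference over the 16 livers between FPKM values divided by each gene's highest liver, among 12918 genes whose highest liver reached 0.5. Sectm1b lay nearest to Corin, a protease that processes natriuretic peptides, at 0.026, and next to the cytochrome P450 gene Cyp2c39 at 0.036. Corin had 0.02 to 0.07 FPKM in Ad_Chrebpa_HFLMCD and 6.58 to 7.34 FPKM in Ad_GFP_HFLMCD, with 0.01 to 0.14 FPKM in the NASH livers. Cyp2c39 had 1.58 to 2.78 FPKM in Ad_Chrebpa_HFLMCD and 115.4 to 156.1 FPKM in Ad_GFP_HFLMCD, with 0.42 to 3.52 FPKM in the NASH livers. Gm8994 had the same nearest pair, at 0.044 and 0.062. Hist1h2bj lay nearest to Tmeff2 at 0.086 and to its cluster neighbour Hist1h2ba at 0.12. Hist1h2ba was listed in the 4 Ad_Chrebpa_HFLMCD livers, at 0.43 to 1.21 FPKM, and in no other liver. Pls1 lay nearest to Sectm1a at 0.044 and Wisp2 at 0.051. Zfp979 lay nearest to Tmem28 at 0.11 and Acot1 at 0.11, and Akr1c18 to Cyp3a44 at 0.085 and Hist1h3a at 0.096. Eno1b lay nearest to Mettl7a2 at 0.094 and Sybu at 0.11. Camk2b lay nearest to Odf3b at 0.12 and Mapk15 at 0.13, and Trim80 to Cabp4 at 0.12 and P2ry1 at 0.13. The HFLMCD values by which the members were chosen enter each of these distances, so a near profile partly restates that choice. A nearest profile need not be near on-off. Odf3b had 4.06 to 5.52 FPKM in Ad_Chrebpa_HFLMCD and 1.67 to 2.97 FPKM in Ad_GFP_HFLMCD. For Cabp4 these ranges overlapped, at 0.12 to 0.23 FPKM and 0.08 to 0.19 FPKM.

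Within the set, Sectm1b and Gm8994 were the closest of the 36 pairs at 0.027, and Sectm1b and Camk2b the farthest at 0.71. These distances include the HFLMCD values by which the members were chosen. Sectm1b and Gm8994 were chosen as near absent in Ad_Chrebpa_HFLMCD, and Camk2b as near absent in Ad_GFP_HFLMCD. The choice of genes therefore fixed part of this order, and no test was made of it. The genes that met the near on-off check without being members were Hba-a2, Cyp2c39, Hist1h2ba and Corin. Hba-a2, an α-globin gene named after its values were seen, had 73.4 to 217.7 FPKM in Ad_Chrebpa_HFLMCD, 1.80 to 2.48 FPKM in Ad_GFP_HFLMCD and 358.0 to 1101 FPKM in the NASH livers. Of these 4, Ad_GFP_HFLMCD alone lay outside the NASH range for 2, Ad_Chrebpa_HFLMCD alone for 1, and both for 1.

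**Figure D4:**
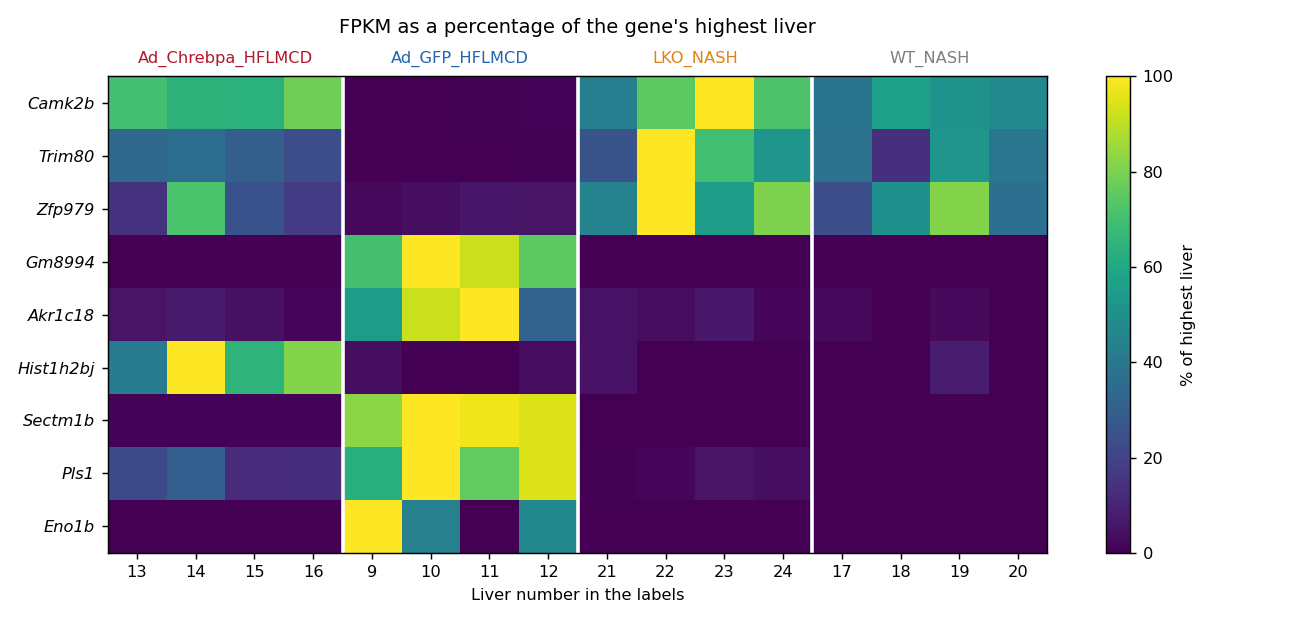
FPKM of each gene as a percentage of its highest liver (colour, 0 to 100%), genes in rows and livers in columns by group. The Ad_GFP_HFLMCD columns are dark for Camk2b, Trim80 and Zfp979 and bright for Gm8994, Akr1c18, Sectm1b and Pls1, and Eno1b is dark in liver 11.

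The groups offer no contrast that separates the virus from the mice that received it. On a list of 5 genes with known inactive alleles in laboratory strains, 3 were matched. Nnt, the transhydrogenase gene that is partly deleted in C57BL/6J mice, had 32.9 to 36.6 FPKM in Ad_Chrebpa_HFLMCD, 48.7 to 51.8 FPKM in Ad_GFP_HFLMCD, 10.1 to 16.1 FPKM in LKO_NASH and 8.57 to 12.8 FPKM in WT_NASH. It fell by 0.48 in Ad_Chrebpa_HFLMCD against Ad_GFP_HFLMCD (SE 0.057, adjusted p = 0.00213 by edgeR) and was present in every liver. The complement gene Hc had at least 124.7 FPKM in every liver and the interferon-induced Mx1 at least 0.19, and neither was called. Alleles were not read here, and an inactive allele can still give RNA. The level of these 3 genes therefore does not say which allele a liver carries. The Y-linked genes Ddx3y, Kdm5d, Eif2s3y and Uty were present in all 16 livers with 0 of 4 called, summing to 45.4 to 47.5 FPKM in Ad_Chrebpa_HFLMCD and 40.8 to 45.4 FPKM in Ad_GFP_HFLMCD.

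Of 22 ChREBP targets 0 rose and 6 fell in Ad_Chrebpa_HFLMCD, against 4.95% called higher and 3.18% called lower over all tested genes. Their median log2 fold change was -0.13, against -0.01 over all tested genes. A fit of all 16 livers called 0 of the 22. The acetyl-CoA carboxylase gene Acaca fell by 0.57 (SE 0.078, adjusted p = 0.00392), the elongase gene Elovl6 by 0.86 (SE 0.12, adjusted p = 0.00393) and Fasn by 1.03, as above, by edgeR. Between the NASH groups 0 of 22 were called. The ChREBP target Txnip, named although it was not called, had the highest value of the 22 in the HFLMCD livers, 0.35 (SE 0.22, adjusted p = 0.347 by edgeR). Virus and mice divide the HFLMCD livers in the same way, so for each of the 9 genes they cannot be told apart.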

How the data were processed

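RNA of 16 mouse livers, 1 library each, was compared in 4 groups of 4 taken from the labels, which do not say outright that each is a separate animal, so the p-values reflect sample-to-sample spread, which may be technical. Expected counts (estimated reads per gene) and FPKM, with a transcript length, were deposited by the authors, per the file headers. HISAT2 was used per the submitters' processing notes, with counting program, genome build and annotation not given in the sources used here. Entries named by a transcript (26) were summed into their gene. A gene below an FPKM of 0.01 was not listed and was taken as 0.

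Expected counts were rounded and tested with edgeR 4.0.16 (filterByExpr, TMM, quasi-likelihood, two-sided, Benjamini-Hochberg over all tested genes) in R 4.3.3, in 1 fit per experiment. DESeq2 1.42.0, limma 3.58.1 and other settings were alternatives. The gene test was checked on simulated counts. Sequence matches between transcripts were found with BLAST 2.17.0 in GENCODE transcripts, and promoters and gene order came from RefSeq tables of GRCm38.p6. Other values were computed with Python 3.11.15, pandas 2.3.3, NumPy 2.4.6, SciPy 1.17.1 and matplotlib 3.10.9. A check of expected count per FPKM, for members with at least 20 counts in a liver, gave lengths near the listed ones except for Hist1h2bj. Its implied length was 399.5 to 400.4 bases in Ad_Chrebpa_HFLMCD, against 429 listed.

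The 9 genes and all lists were chosen with earlier results of these data known. Named were the 9 genes, the 2 nearest profiles of each, called neighbours (1 of which is not reported or drawn here), up to 3 called genes per list, fixed close relatives and Mlxipl. Some other genes in the text, Txnip among them, fall outside this rule. Near on-off genes had to be above 0 in the lowest liver, a condition added after the data were seen that left out 2 genes. Library totals were 21254937 to 40327264 expected counts.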

Additional observations from a re-analysis of the deposited data

Results flagged for a closer look

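The NASH step of Pls1 had the opposite sign to its HFLMCD step. By the labels the NASH comparison is a deletion of Chrebpα and the HFLMCD comparison an overexpression. Opposite signs are therefore not in themselves a disagreement between the 2 comparisons. Every LKO_NASH liver was above every WT_NASH liver (log2 fold change 2.97 by edgeR without a filter), while every Ad_Chrebpa_HFLMCD liver was below every Ad_GFP_HFLMCD liver, and the difference between the comparisons was not tested. In 3 groups of 4, 1 liver stood apart from the others because it alone listed the gene: Trim80 in Ad_GFP_HFLMCD at 0.01 FPKM, Hist1h2bj in LKO_NASH at 0.24 FPKM and Hist1h2bj in WT_NASH at 0.39 FPKM. The rate of about 1 in 20 groups that chance marks holds for continuous values; a group with 1 listed liver is always marked, so it does not apply to these 3, found among 36 groups.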

How the results depend on the processing

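Between the NASH groups, edgeR called 0 genes, DESeq2 158 and a fit of all 16 livers 152, and leaving out each liver in turn gave 0 to 420 calls, the highest without LKO_NASH liver 21. Between the HFLMCD groups, 1110 genes were called by edgeR, 1941 by DESeq2 and 336 with all 16 livers in 1 fit. Leaving out each liver gave 400 to 1722, with 599 without liver 11, 533 without liver 12, 525 without liver 13, 1722 without liver 14, 609 without liver 15 and 400 without liver 16. The near on-off check took 8 to 11 genes and 4 to 5 of the 9 under every setting tried, and Eno1b met it without liver 11. Ad_GFP_HFLMCD alone lay outside the NASH range for 5 to 6 of the 9 when each liver was left out, 6 without liver 11 or liver 23, settings chosen after seeing the data. With 10 neighbours on each side 12.6% were called. Of 23 called genes named beside the 9, 6 kept their call under every setting tried and 12 when each liver was left out, and Eno1, which passed no test, alone changed sign: it ranged from -0.13 without liver 9 to 0.043 without liver 11. With all 16 livers in 1 fit 14 of the 23 lost their calls (Fasn, Pklr, Acaca, Elovl6, Krt19, Kctd2, Gapdh, Camk2n1, Calm3, Trim25, Trim47, Hist1h1c, Hist1h2bc and Epcam), with adjusted p of up to 0.684. No fold change of the 9 genes reversed. In the HFLMCD comparison 21 of 126 recomputed fold changes moved by more than their spread, mostly on log2(FPKM + 1) or log2(FPKM + 0.1), and in the NASH comparison 0 of 42 changed their side of the threshold. No paired analysis was possible because the livers carry numbers 9 to 24 that no groups share. Depth limits the low genes, some of which rest on under 10 counts per liver.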
